A study of Mus musculus with 20 samples.

Results

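The genes described are a set known for regulatory T cells: Foxp3, Il2ra, Ikzf2, Ikzf4, Tnfrsf4, Tnfrsf18, Ccr8 and Lrrc32. They were followed on 20 microarrays of mouse skin melanomas by taking every row of the expression table that the platform names with a listed symbol. Each of 7 of the 8 genes had 1 such row, out of 19504 named genes in all. Foxp3, which encodes the lineage-defining transcription factor of regulatory T cells, had no row with its name and was not analysed here, so the set could not be checked against its defining gene.

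The tumors arose in 2 mouse genotypes. B;p38α mice carried Tyr::CreERT2, BrafCA/CA and p38αlox/lox, and B mice carried Tyr::CreERT2 and BrafCA/CA without the p38α alleles. The tyrosinase promoter restricts the tamoxifen-dependent recombinase to melanocytes, so in both lines BRAF V600E was switched on in those cells, and in B;p38α mice p38α was also deleted there, with the leukocytes of the tumor not targeted. Pups of both lines were given topical 4-hydroxytamoxifen (5 mg/ml) on postnatal day 2.5 and again on day 3.5 and were exposed once to UVB (6.24 kJ per square meter, day 3.5), with tumors collected at the endpoint. CD45+ cells (3 B;p38α and 3 B samples) and the CD45- remainder (3 and 3) were separated from dissociated tumors with a magnetic selection kit, and RNA of complete tumors (3 and 5) was taken without separation. The labels call the samples of a group biological replicates and do not state whether each is from a different animal. The p-values cover the spread between these samples.

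Regulatory T cells restrain other T cells and are known to accumulate in skin and in many tumors. They take up interleukin-2 through a receptor whose alpha chain is CD25, encoded by Il2ra, receive costimulation through OX40 (Tnfrsf4) and GITR (Tnfrsf18), and in tumors often carry the chemokine receptor CCR8. GARP, encoded by Lrrc32, holds latent TGF-β on their surface, and the zinc finger factors Helios (Ikzf2) and Eos (Ikzf4) act beside FOXP3. None of these genes is exclusive to the lineage: activated conventional T cells use Il2ra, Tnfrsf4 and Tnfrsf18, and endothelial and mesenchymal cells and platelets use Lrrc32.

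All values are log2 levels from which differences between samples of 1 gene can be read, while levels of different genes cannot be ranked. As a guide to dim signals, the 1412 olfactory and vomeronasal receptor genes, which skin tumors are not known to use, had a median level of 3.80 and a 95th percentile of 5.97 over all arrays. The group means of Il2ra and Ccr8 lay inside that range in all 6 groups, above 54.7% to 94.1% of the guide genes' levels for Il2ra and 72.2% to 96% for Ccr8. Il2ra in B;p38α CD45+ cells, above 75.6%, stood at about the same place among them as in B complete tumors, above 74.9%. The values carry no detection call, so how far these levels exceed background is not known. The other 5 genes lay at its upper end or above it. In bulk RNA fewer regulatory T cells and less RNA per cell cannot be told apart.

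Of the arrays, B CD45- replicate 1 and B CD45+ replicate 2 had the narrowest spread of values (interquartile ranges of 2.95 and 3.41, against 3.62 to 3.89 on the other arrays), and results are given without them where this matters. Mapk14, the gene of p38α, averaged 9.79 ± 0.20 in B;p38α and 10.06 ± 0.11 in B complete tumors, 10.20 ± 0.21 and 10.39 ± 0.08 in CD45+ cells, and 9.64 ± 0.14 and 9.79 ± 0.23 in CD45- cells (SD), and passed limma's test in no compartment. Y-linked genes differed widely, with array means from 2.75 to 9.29, and no label states sex. In CD45+ cells they were also apart between genotypes, with means of 3.23, 3.01 and 2.75 in B;p38α samples, against 8.67, 4.30 and 5.36 in B samples. The sort was followed with markers: all 8 general leukocyte genes were higher in CD45+ than in CD45- cells, as were 10 of 14 T cell genes and 7 of 10 endothelial genes. Over all genes 7.79% were higher and 4.37% lower in this comparison. Fibroblast genes, 1 of 6 of which was lower in CD45+ cells, kept a mean level of 11.22 ± 0.10 in B;p38α and 11.22 ± 0.40 in B CD45+ cells, so the CD45+ samples were enriched in leukocytes and not free of stroma.

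**Figure D1:**
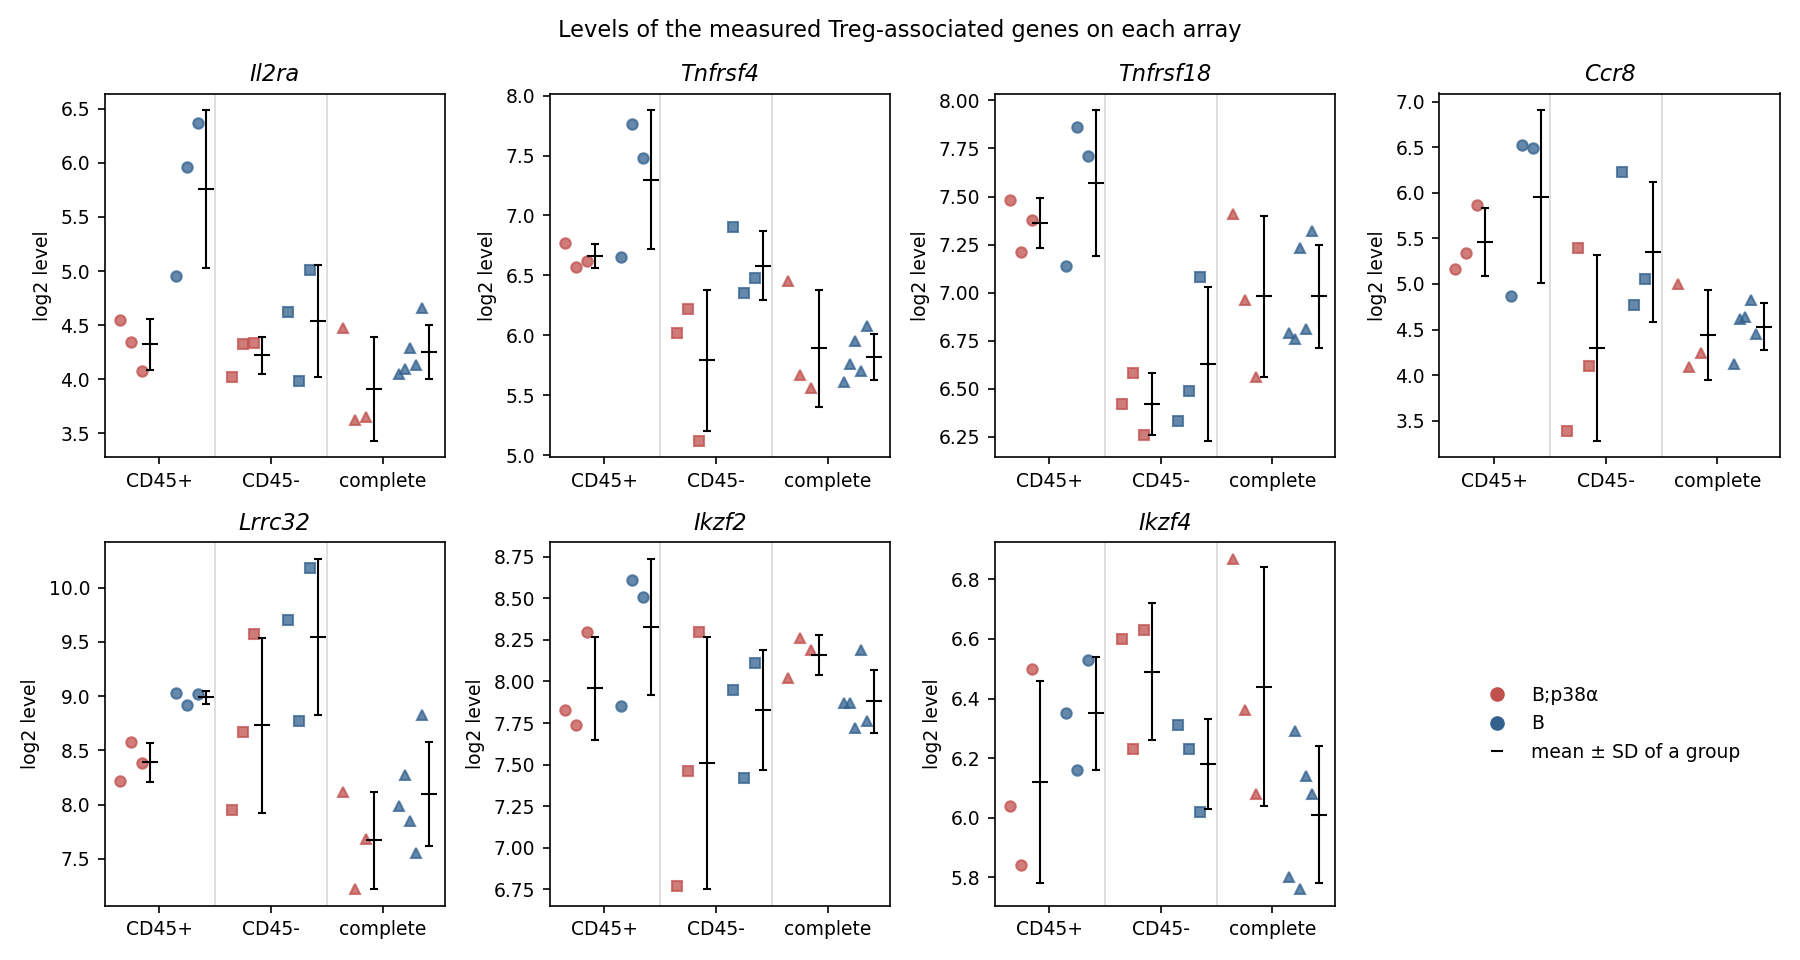
Log2 level of each measured gene (vertical axes) on every array, by compartment, with B;p38α samples in red left of B samples in blue and the mean ± SD of each group in black (n = 3, and 5 for B complete tumors). The B CD45+ samples hold the highest values of Il2ra, Tnfrsf4, Tnfrsf18, Ccr8 and Ikzf2, while the highest Lrrc32 value, 10.18, is a B CD45- sample. For Tnfrsf4, Tnfrsf18, Ccr8 and Ikzf2 the highest value is that of B CD45+ replicate 2, an array of narrow range.

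Il2ra showed the widest separation between the genotypes among leukocytes. It measured 4.55, 4.34 and 4.07 in B;p38α CD45+ samples, against 4.95, 5.96 and 6.37 in B CD45+ samples. All B values lay above all B;p38α values, and 2 of the B values stood clear of every other sample of the study. The value of 5.96 came from B CD45+ replicate 2, an array of narrow range. In CD45- cells Il2ra measured 4.02, 4.32 and 4.33 in B;p38α samples, against 4.62, 3.98 and 5.01 in B samples, and in complete tumors 4.47, 3.62 and 3.65, against 4.05, 4.09, 4.29, 4.13 and 4.66. In both of these compartments the genotypes overlapped.

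The costimulatory receptor genes Tnfrsf4 and Tnfrsf18 lie next to each other on chromosome 4, with 9708 bases and 1 other RefSeq gene between them. Tnfrsf4 measured 6.77, 6.57 and 6.62 in B;p38α CD45+ samples, against 6.65, 7.76 and 7.48 in B CD45+ samples, and 6.02, 6.22 and 5.12 in B;p38α CD45- samples, against 6.90, 6.35 and 6.48 in B CD45- samples. B CD45- replicate 1, at 6.90, reached into the range of the CD45+ samples. In complete tumors Tnfrsf4 was at 6.45, 5.67 and 5.56 in B;p38α and 5.61 to 6.08 in B samples.

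Tnfrsf18 measured 7.48, 7.21 and 7.38 in B;p38α CD45+ samples, against 7.14, 7.86 and 7.71 in B CD45+ samples, and 6.42, 6.58 and 6.26 in B;p38α CD45- samples, against 6.33, 6.49 and 7.08 in B CD45- samples. Every CD45+ sample lay above every CD45- sample in both genotypes. Complete tumors, at 7.41, 6.96 and 6.56 in B;p38α and 6.76 to 7.32 in B samples, overlapped both sorted populations.

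As these neighbors were the 2 members that passed the test between the sorted populations, the bases before their annotated genes are shown, from RefSeq (GRCm38.p6, plus strand), at chr4:156013445-156013594 for Tnfrsf4 and chr4:156026072-156026321 for Tnfrsf18. Capitals mark a match to the letters TTCNNNGAA, a spacing that STAT factors recognize.
Tnfrsf4: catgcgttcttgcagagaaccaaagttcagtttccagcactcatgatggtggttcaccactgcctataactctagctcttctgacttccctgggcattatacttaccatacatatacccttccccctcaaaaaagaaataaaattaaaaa
Tnfrsf18: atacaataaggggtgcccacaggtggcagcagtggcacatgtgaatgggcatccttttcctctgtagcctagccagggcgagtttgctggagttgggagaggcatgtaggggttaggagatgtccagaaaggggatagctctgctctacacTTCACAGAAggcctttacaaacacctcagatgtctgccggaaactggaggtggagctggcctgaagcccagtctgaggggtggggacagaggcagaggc
RefSeq promoter entries matched 4 of the 7 measured genes, Il2ra, Tnfrsf4, Tnfrsf18 and Ccr8. In the 250 bases before their listed starts, TTCNNNGAA occurred in 1 of the 4, against 7.02% of 32851 promoters searched in the same way. TGANTCA, the letters of AP-1 sites (6.75% of all promoters), and TGTGGT, those of Runx sites (14% of all), occurred in 0 of the 4. Both strands were searched, and the motifs do not overlap in the stretch shown. A match is a description of letters only.

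Ccr8, the receptor for the chemokines CCL1 and CCL8, measured 5.17, 5.34 and 5.87 in B;p38α CD45+ samples, against 4.87, 6.53 and 6.49 in B CD45+ samples. In CD45- cells it measured 3.39, 5.40 and 4.10 in B;p38α samples, against 6.23, 4.77 and 5.05 in B samples, the value of 6.23 coming from the array of narrowest range. Complete tumors measured 5.00, 4.09 and 4.24 in B;p38α and 4.12 to 4.82 in B samples. Ccr8 had the largest spread within groups of the 7 genes, with a pooled SD of 0.71.

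Lrrc32 had another pattern. It measured 8.22, 8.58 and 8.38 in B;p38α CD45+ samples, against 9.03, 8.92 and 9.02 in B CD45+ samples, and 7.95, 8.67 and 9.57 in B;p38α CD45- samples, against 9.70, 8.77 and 10.18 in B CD45- samples. The genotypes were apart in CD45+ cells and overlapped in CD45- cells, and the 3 highest values of the study came from CD45- cells. Complete tumors measured 8.12, 7.22 and 7.68 in B;p38α and 7.55 to 8.83 in B samples.

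The 2 transcription factor genes passed no test between groups. Ikzf2 measured 7.83, 7.74 and 8.30 in B;p38α CD45+ samples, against 7.85, 8.61 and 8.51 in B CD45+ samples, and its group means in the other compartments lay between 7.51 and 8.16. Ikzf4 measured 6.04, 5.84 and 6.50 in B;p38α CD45+ samples, against 6.35, 6.16 and 6.53 in B CD45+ samples, and ranged over only 1.11 on all 20 arrays. For both genes the compared groups overlapped in every comparison.

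The first comparison asks in which sorted population these genes were higher. Of the 7 genes, Tnfrsf18 and Tnfrsf4 were higher in CD45+ than in CD45- cells over both genotypes, and none was lower (limma, p adjusted by Benjamini-Hochberg over all genes and under 0.05), where 7.79% of all 19504 genes were higher and 4.37% lower. Tnfrsf18 was higher by 0.94 ± 0.17 (SE, adjusted p = 0.00401) and remained past the threshold when any of the 12 sorted arrays was left out. Tnfrsf4 was higher by 0.79 ± 0.23 (adjusted p = 0.0481), a call that held in 3 of 12 such fits, those without B CD45+ replicate 1, B CD45- replicate 1 or B;p38α CD45- replicate 2, and was lost without any of the other 9, with adjusted p from 0.0608 to 0.115. Without the 2 arrays of narrowest range the adjusted p was 0.0167 for Tnfrsf18 and 0.0719 for Tnfrsf4. Il2ra (0.66 ± 0.25, adjusted p = 0.122), Ccr8 (0.89 ± 0.41, 0.213), Ikzf2 (0.47 ± 0.26, 0.31), Ikzf4 (-0.10 ± 0.15, 0.775) and Lrrc32 (-0.45 ± 0.28, 0.39) did not pass, although Il2ra passed without B CD45+ replicate 1 (0.86, adjusted p = 0.0202). The median difference of the 7 genes was 0.66, beside -0.08 over all genes.

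Within each genotype 0 of the 7 genes passed the same test, where 4.78% of all genes passed in B;p38α and 4.66% in B. At an unadjusted p under 0.05, 2 of 7 passed in each genotype, as did 3099 of 19504 genes in B;p38α and 3282 in B. The nearest was Tnfrsf18, higher by 0.94 ± 0.24 in B;p38α (adjusted p = 0.0524) and by 0.94 ± 0.24 in B (adjusted p = 0.0536). For Il2ra the CD45+ cells exceeded the CD45- cells by 0.10 ± 0.35 in B;p38α and by 1.22 ± 0.35 in B (adjusted p = 0.955 and 0.0804).

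Set against complete tumors, CD45+ cells had higher levels of 5 of the 7 genes and a lower level of none, where 12.9% of all genes were higher and 12.9% lower. Complete tumors were not dissociated, so dissociation and selection cannot be told apart from the compartment. Ccr8 was higher by 1.23 ± 0.33 (adjusted p = 0.0107), Tnfrsf4 by 1.12 ± 0.21 (0.000656), Il2ra by 0.96 ± 0.22 (0.0035), Lrrc32 by 0.80 ± 0.26 (0.0319) and Tnfrsf18 by 0.48 ± 0.17 (0.0433). Of these, only Tnfrsf4 had no overlap between CD45+ samples and complete tumors. The calls of Ccr8, Tnfrsf4 and Il2ra held whichever of the 20 arrays was left out. That of Lrrc32 held in 11 of 20 such fits and was lost without B complete replicate 3 or 4, B;p38α complete replicate 2 or 3, any B CD45+ sample, or B;p38α CD45+ replicate 2 or 3 (adjusted p up to 0.0898). That of Tnfrsf18 held in 8 of 20, those without B complete replicate 3 or 5, B;p38α complete replicate 1, B CD45+ replicate 1, any B CD45- sample or B;p38α CD45- replicate 3, and was lost in the other 12 (adjusted p up to 0.131). Both were lost without the 2 arrays of narrowest range, at adjusted p of 0.0515 and 0.0942. Ikzf2 and Ikzf4 differed by 0.12 ± 0.20 and 0.01 ± 0.15.

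Set against complete tumors, CD45- cells had a higher level of Lrrc32 alone among the 7 genes, by 1.25 ± 0.26 (adjusted p = 0.00596), and a lower level of none, where 6.24% of all genes were higher and 6.47% lower. This call held in 20 of 20 fits that left out 1 array. Lrrc32 was therefore higher in both sorted populations than in complete tumors. Tnfrsf18 was at -0.46 ± 0.17 (adjusted p = 0.0847) and passed without B CD45- replicate 3 (-0.57, adjusted p = 0.0326).

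**Figure D2:**
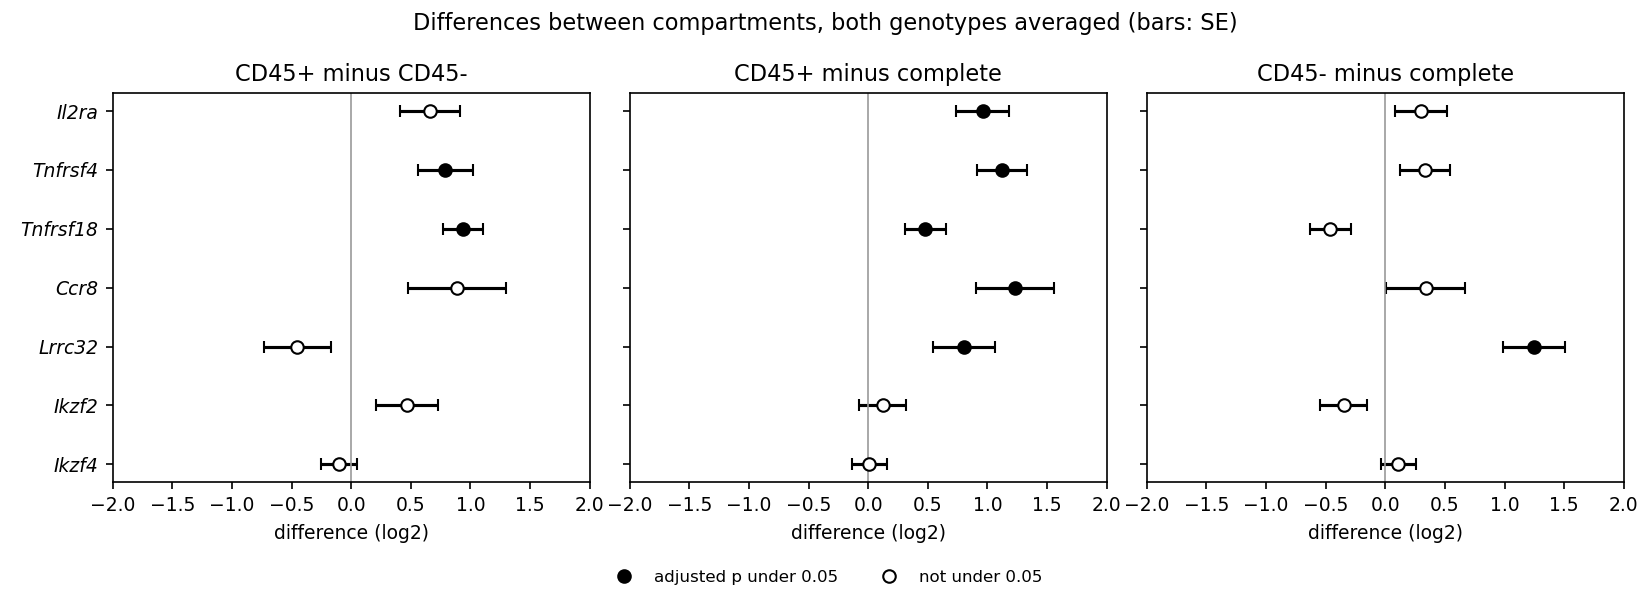
Differences in log2 level between compartments over both genotypes, with standard errors, for each gene (rows), and filled points where the adjusted p was under 0.05. Tnfrsf18 and Tnfrsf4 are filled for CD45+ minus CD45-, 5 genes for CD45+ minus complete, and Lrrc32 alone for CD45- minus complete.

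Other genes known from regulatory T cells were compared between the sorted populations in lists. Over all genes 7.79% were higher and 4.37% lower in CD45+ than in CD45- cells. Among 24 measured genes of effector and suppressive function, 13 were higher and 1 was lower, with a median difference of 0.98. The integrin chain Itgae was higher by 2.52 ± 0.26 (adjusted p = 0.000104), the cytokine subunit gene Ebi3 by 2.41 ± 0.36 (0.00109) and the decoy receptor Il1r2 by 2.22 ± 0.41 (0.00412). Entpd1, by 1.98 ± 0.28 (0.000754), and Il10, by 1.97 ± 0.27 (0.000645), came next. The inhibitory receptor Ctla4 followed these, higher by 1.94 ± 0.47 (0.0193). Itgb8, an integrin chain that activates TGF-β, was the 1 lower gene (difference -0.89 ± 0.26, adjusted p = 0.048). Cd83, the gene with the largest difference (2.91 ± 0.28, adjusted p = 7.15e-05), is also used by dendritic cells, and 6 of 8 dendritic and 7 of 7 macrophage markers were higher in CD45+ cells too. The part of these cells in the list's differences was not tested.

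Of 19 measured transcription factors that work beside FOXP3, 10 were higher in CD45+ than in CD45- cells and none lower. The shares over all genes were 7.79% higher and 4.37% lower. Ikzf1, the Ikaros relative of Ikzf2 and Ikzf4, was higher by 2.67 ± 0.27 (adjusted p = 7.71e-05), Prdm1, which encodes BLIMP-1, by 2.20 ± 0.15 (1.87e-05), Runx3 by 1.88 ± 0.17 (3.99e-05) and Irf4 by 1.87 ± 0.17 (5.93e-05). Of 11 measured genes of IL-2 signaling, 2 were higher and 1 lower: Il2rb, the receptor's beta chain, by 2.21 ± 0.34 (0.0014), and Cish, a feedback inhibitor, by 0.89 ± 0.15 (0.00238), while the survival gene Bcl2 had a difference of -0.57 ± 0.15 (0.0342).

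The ligands of these receptors were followed too. Of 17 measured ligands and partners, 7 were higher in CD45+ than in CD45- cells and 1, Itgb8, was lower, beside 7.79% and 4.37% of all genes. Among the higher were the chemokine genes Ccl22, by 2.64 ± 0.20 (adjusted p = 2.21e-05), and Ccl8, by 2.84 ± 0.52 (0.00399), and Cd86, a ligand of CTLA-4, by 3.21 ± 0.40 (0.000323). Nrros, which like Lrrc32 anchors latent TGF-β but on myeloid cells, was higher by 2.60 ± 0.27 (9.28e-05). Ccl1, a ligand of CCR8, did not pass (0.34 ± 0.19, adjusted p = 0.314). Nor did Tnfsf4 and Tnfsf18, the ligands of OX40 and GITR (0.65 ± 0.31, adjusted p = 0.228, and -0.26 ± 0.40, 0.784).

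The second comparison asks whether deletion of p38α in melanocytes went with other levels of these genes. In CD45+ cells all 7 differences, B;p38α minus B, were below 0, from -1.44 to -0.21 with a median of -0.50, beside 0.00 over all genes, of which 49.6% were negative. By limma 0 of the 7 passed at an adjusted p under 0.05, as did 0% of all genes, and at an unadjusted p under 0.05, 2 of the 7 and 2101 of 19504 genes passed. Il2ra was at -1.44 ± 0.36 and Lrrc32 at -0.60 ± 0.16 (adjusted p = 0.412 for each). These 2 genes had no overlap between genotypes, both lower in B;p38α, where 7.35% of all genes were without overlap and lower and 9.16% without overlap and higher. Il2ra stayed between -1.84 and -1.13 and Lrrc32 between -0.69 and -0.51 when each array was left out in turn, with no adjusted p under 0.05. Tnfrsf4 was at -0.64 ± 0.29, Ccr8 at -0.50 ± 0.46, Ikzf2 at -0.37 ± 0.26, Ikzf4 at -0.22 ± 0.22 and Tnfrsf18 at -0.21 ± 0.22, and single arrays moved these 5 by over 1.5 times. Without B CD45+ replicate 1 Ccr8 was at -1.05, Tnfrsf4 at -0.96, Ikzf2 at -0.60 and Tnfrsf18 at -0.43, and without B CD45+ replicate 2 at -0.22, -0.41, -0.22 and -0.06 in the same order. Without B CD45+ replicate 3 Ccr8 was at -0.24 and Tnfrsf18 at -0.14. Ikzf4 ran from -0.41 without B;p38α CD45+ replicate 3 to -0.08 without B;p38α CD45+ replicate 2. With the Y-linked mean as a covariate Il2ra was at -2.27 (adjusted p = 0.0616), Lrrc32 at -0.55 (0.238), Tnfrsf4 at -1.41 (0.053) and Ccr8 at -1.81 (0.0616), so 0 of 7 passed. The Y-linked means did not overlap between genotypes in these cells. This fit therefore cannot separate them from genotype, and its larger differences are not read as a genotype effect. With weights given to arrays by their fit, 6 of the 7 passed, and so did 5303 genes of all kinds, a result that depended on this weighting.

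**Figure D3:**
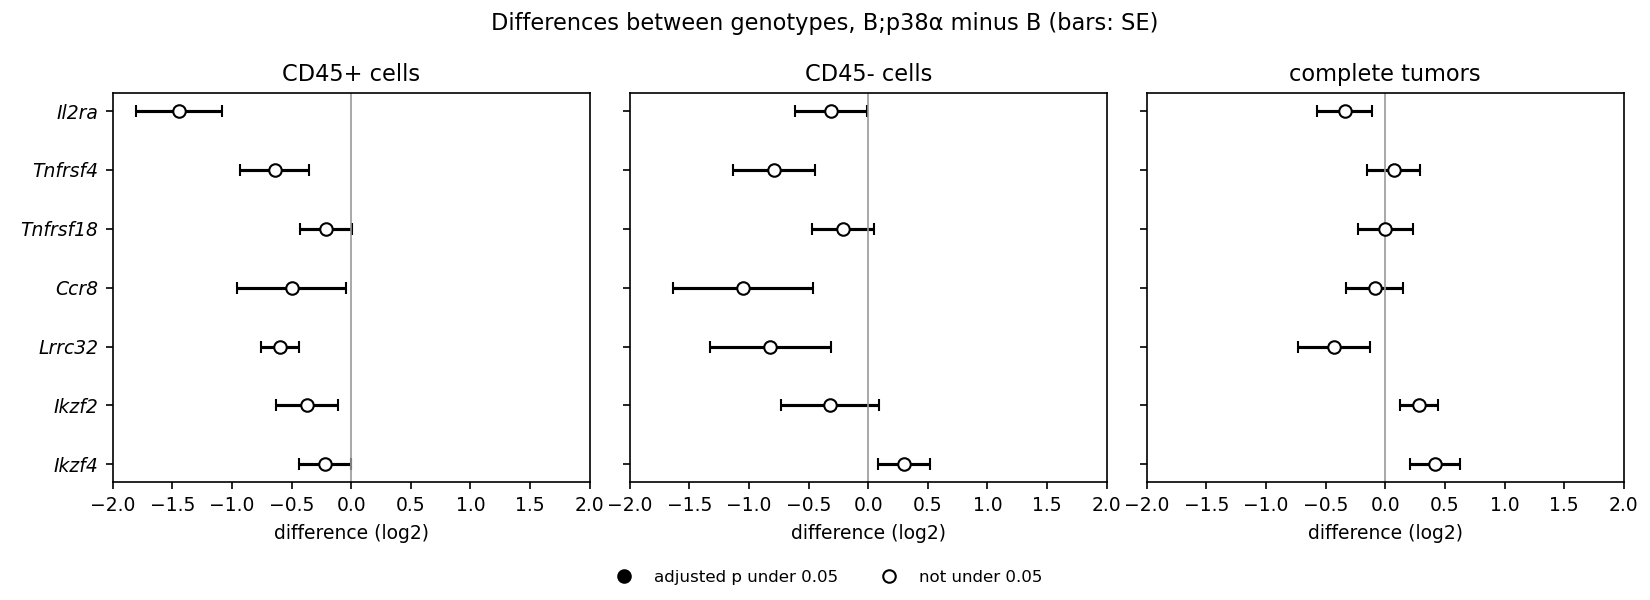
Differences in log2 level between genotypes, B;p38α minus B, with standard errors, for each gene (rows) in each compartment, all open because no adjusted p was under 0.05. In CD45+ cells all 7 points lie below 0, with Il2ra at -1.44, and in complete tumors 4 of the 7 do, Tnfrsf18 among them at -0.00.

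Markers of several cell types moved with these differences in CD45+ cells, and their part was not tested. T cell genes had differences below 0 for 13 of 14, none past the threshold, with array means of 6.78, 6.91 and 7.30 in B;p38α, against 6.83, 7.60 and 7.50 in B samples. Endothelial genes had differences below 0 for 10 of 10, none past the threshold, with array means of 8.24, 8.26 and 9.19 in B;p38α, against 9.21, 9.16 and 9.44 in B samples. All 8 general leukocyte genes, all 8 NK and cytotoxic genes and all 6 mast cell genes also had differences below 0, none past the threshold. Their mean levels in B;p38α and B samples were 10.55 ± 0.40 and 10.84 ± 0.11 for general leukocyte genes, 6.63 ± 0.50 and 6.93 ± 0.63 for NK genes, and 8.34 ± 1.08 and 9.06 ± 0.46 for mast cell genes. All 5 measured genes of type 2 innate lymphoid cells were below 0 too, none past the threshold. Their mean levels were 6.07 ± 0.17 in B;p38α and 6.47 ± 0.16 in B samples. Array means of this list ran from 5.91 to 6.25 in B;p38α, against 6.29 to 6.60 in B samples. The other cell type lists had differences on both sides of 0. Examples were Flt3 at 0.30 and Clec9a at -1.31 among dendritic genes, and S100a8 at 0.55 and Retnlg at -0.52 among neutrophil genes. Fibroblast genes included Col1a1 at 0.38 and Lum at -0.37. The share of negative differences over all genes is given above. B CD45+ replicate 1 had the lowest T cell mean of its group and was also lowest there for Il2ra, Tnfrsf4, Tnfrsf18, Ccr8 and Ikzf2, but not for Lrrc32 or Ikzf4. Measured relative to the mean of Cd3d, Cd3e and Cd3g, genes of the T cell receptor complex, on the same array, Il2ra had a difference of -0.94 (two-sided exact permutation p = 0.1, the smallest that 3 against 3 samples allow, adjusted p = 0.919 over 21 such values). The other 6 genes lay between -0.15 and 0.28 on this scale in CD45+ cells.

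In CD45- cells 6 of the 7 differences between genotypes were below 0, with a median of -0.32 beside 0.05 over all genes. By limma 0 of 7 passed at either an adjusted or an unadjusted p under 0.05, where 0.0103% of all genes passed at the adjusted one. Tnfrsf4, at -0.79 ± 0.34 (adjusted p = 0.675), had no overlap between genotypes, where 5.36% of all genes were without overlap and lower and 10.6% higher. Ccr8 was at -1.05 ± 0.59, or -0.61 ± 0.57 without the 2 arrays of narrowest range. Leukocyte genes moved with these values: general leukocyte markers had array means of 5.86, 7.59 and 8.10 in B;p38α, against 8.86, 8.83 and 8.47 in B CD45- samples, and all 14 T cell genes had differences below 0, none past the threshold. Their part in the differences was not tested.

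In complete tumors 4 of the 7 differences were below 0 and 3 above, with Ikzf4 at 0.42 ± 0.21 and Lrrc32 at -0.43 ± 0.30 the furthest from 0. Tnfrsf18, counted among those below, was at -0.00 ± 0.23. By limma 0 of 7 passed at either an adjusted or an unadjusted p under 0.05, as did 0% of all genes at the adjusted one. None of the 7 was without overlap, where 2.54% of all genes were without overlap and lower and 1.92% higher.

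Whether the genotype difference depended on the compartment was tested with interactions. For CD45+ against CD45- cells 0 of 7 passed, as did 0% of all genes. Il2ra was at -1.12 ± 0.50 (adjusted p = 1), and the other 6 lay between -0.52 and 0.55. For CD45+ cells against complete tumors 0 of 7 passed, again with 0% of all genes, and all 7 were below 0, Il2ra furthest at -1.10 ± 0.44 (adjusted p = 0.682). At an unadjusted p under 0.05, 1 of the 7 and 380 of 19504 genes passed for the sorted cells, and 2 of the 7 and 1408 genes for CD45+ cells against complete tumors. These comparisons share the CD45+ samples.

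None of the lists around the 7 genes had a member past the threshold between genotypes in any compartment. In CD45+ cells the largest difference among effector genes was that of Ccr6, a chemokine receptor, at -1.45 ± 0.25 (adjusted p = 0.335), with 4.96 ± 0.25 in B;p38α and 6.42 ± 0.40 in B samples. The costimulator Icos averaged 6.98 ± 0.21 in B;p38α and 8.42 ± 1.25 in B CD45+ samples (-1.44 ± 0.56, adjusted p = 0.45), while Il10 was at 1.07 ± 0.38 (0.448). Among ligands Ccl17 was at -1.56 ± 0.37 (0.395), Ccl22 at -1.18 ± 0.23 (0.392) and Tnfsf4, the ligand of OX40, at 1.05 ± 0.27 (0.412). Il2rb, which pairs with the product of Il2ra, was at -0.43 ± 0.41 (0.676), and the cytokine gene Il2 at -0.32 ± 0.27 (0.638).

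Across the 20 arrays the genes fell into different patterns, given here as correlations without a test, since the arrays share groups, processing and spread. Tnfrsf4 and Ccr8 were the most alike pair (r = 0.85, and 0.65 for deviations from group means), followed by Il2ra and Tnfrsf4 (0.79 and 0.62). For deviations from group means alone, the most alike pair was Il2ra and Tnfrsf18 (0.75, with r = 0.63 over the arrays). Ikzf4 stood apart, with r between -0.09 and 0.10 to each of the other 6. Tnfrsf4 and Tnfrsf18, the neighbors, had r = 0.66.

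Among all 19504 genes, the most like Ccr8 were Ctla4 (r = 0.92), Icos (0.91) and Abca13 (0.87), and the most like Tnfrsf4 were Ctla4 (0.91), Polg2 (0.88) and Kdm7a (0.88). Il2ra was closest to Rgs6 (0.86), Ccr6 (0.85) and Nmur1 (0.85), and Tnfrsf18 to Oas1b (0.88), Ptpn22 (0.87) and Fkbp15 (0.86). Ikzf2 was closest to Fgl2 (0.88), Sult1a1 (0.87) and Akr1c13 (0.86), and Ikzf4 to Spata2l (0.68), Ins2 (0.67) and Slc4a8 (0.67). Lrrc32 was closest to Gaa (0.91), a lysosomal glucosidase gene, Thbd (0.88), the thrombomodulin gene, and Pdgfrb (0.87), a receptor gene of mesenchymal cells. The part of any cell type in these correlations was not tested. The correlation within groups was highest for Ikzf2 and Fgl2, at 0.93. For Lrrc32 and Pdgfrb it was 0.92, and for Ccr8 and Ctla4 0.85.

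**Figure D4:**
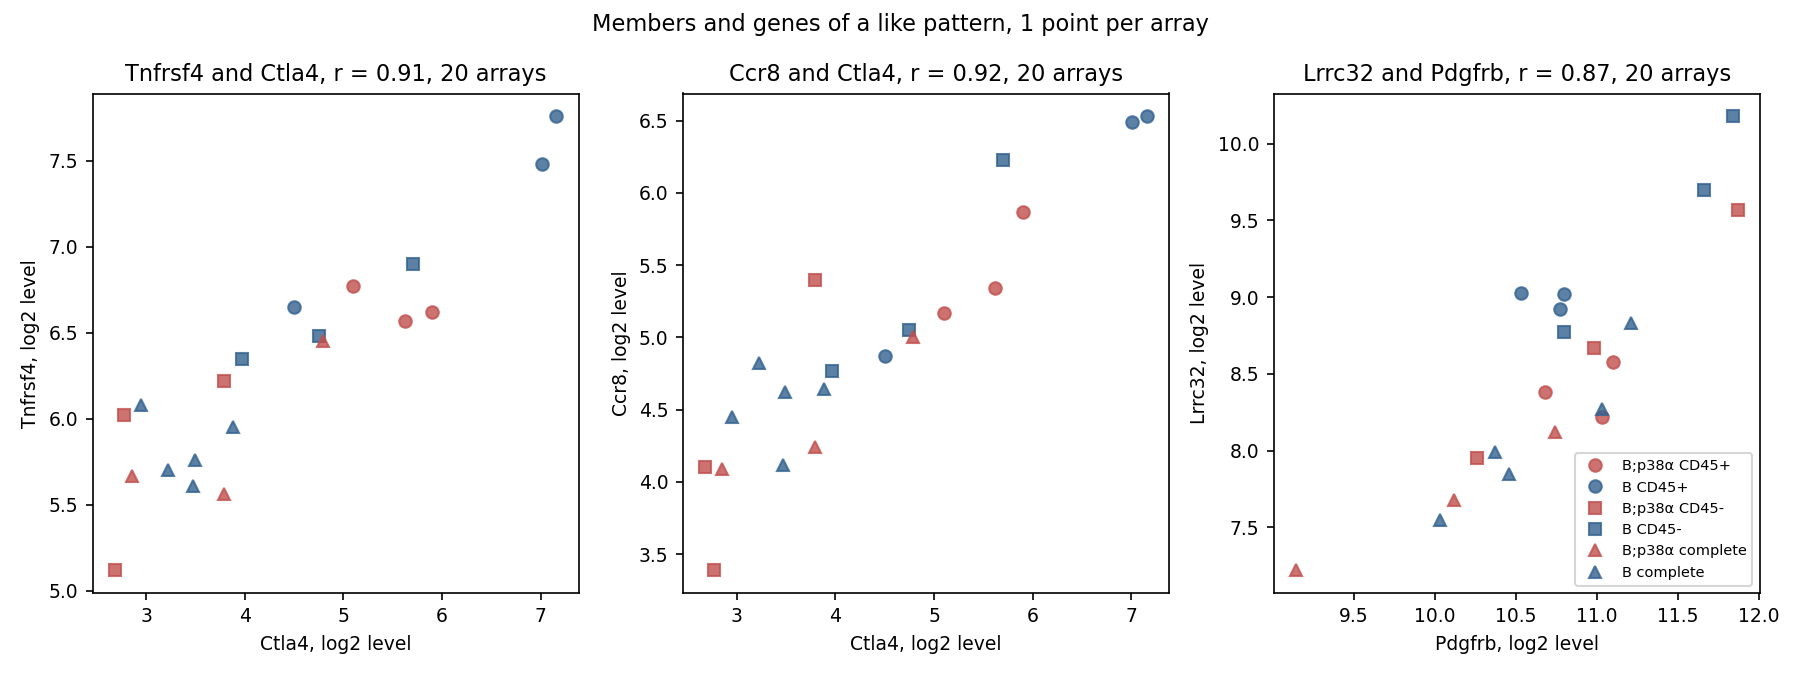
Log2 levels of Tnfrsf4 and Ccr8 against Ctla4 and of Lrrc32 against Pdgfrb, 1 point per array, with B;p38α in red, B in blue and the compartment as the symbol. Tnfrsf4 and Ccr8 are highest on 2 B CD45+ arrays that also have the highest Ctla4, while the highest Lrrc32 values lie on CD45- arrays with the highest Pdgfrb.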

How the data were processed

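Gene expression was measured on microarrays of 20 samples in 6 groups of genotype and compartment, taken from the sample labels. The authors deposited log2 values, and the submitters' processing notes name RMA as the method. No source used here says over which arrays it was run. Array number, not depth, limits the precision. Of 21244 rows, 19570 carried 1 gene symbol and 1674 none. The row of highest mean was kept per gene, which left out 66 rows. Columns of other samples numbered 0. Raw scanner data were not used here.

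Linear models were fitted in limma 3.58.1 (lmFit, then eBayes, under R 4.3.3), genotypes within each compartment, sorted populations over 4 groups and 12 arrays, and comparisons with complete tumors over all 6 groups, with Benjamini-Hochberg adjustment over all 19504 genes and a threshold of 0.05. The steps were tested on simulated data. Members, gene lists and tests were chosen with earlier results of these data known. The genes named are all members, genes of a list that passed between genotypes or in an interaction, up to 4 of largest difference per list and comparison, and the 3 most alike genes per member. Outside this rule, Itgb8, Ccl1, Tnfsf4 and Tnfsf18 in the comparison of sorted cells were chosen after their values were seen. Ctla4, Entpd1 and Il10 in that comparison were also named outside it. Planned tests of Foxp3 relative to T cell genes were not run, since it had no named row, and each measured member was tested in its place with an exact permutation test (scipy 1.17.1). Same-numbered samples of different groups did not deviate together in every pair (correlations of deviations from -0.568 to 0.363; for CD45+ and CD45- samples 0.305, -0.111 and 0.353 in B;p38α and -0.465, -0.568 and 0.363 in B). The labels do not say whether CD45+ and CD45- samples of 1 number come from 1 tumor, and no pairing was used. Other settings tried were 1 model over all 6 groups, blocking on replicate number, genes under the 30th percentile left out, repeated quantile normalization, array weights, a trended robust variance, every named row, the Y-linked mean as a covariate, each array left out in turn and, chosen after seeing the data, the 2 arrays of narrowest range left out. The self-chosen lists held 194 entries in 19 lists. Summaries and plots used Python 3.11.15 and matplotlib 3.10.9.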

Additional observations from a re-analysis of the deposited data

How the results depend on the processing

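Of 1534 values of single members under other settings, 1409 kept their direction and side of the threshold, 38 lost and 29 gained a call, and 58 changed sign. The cause of these changes was not tested. The number of arrays limits every comparison, and RMA levels carry no detection call, so for Il2ra and Ccr8, whose group means lay within the range of the guide genes, signal over background is a limit in every compartment. No test of Foxp3 was run, since it had no named row.

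Genes of all kinds called between genotypes in CD45+ cells numbered 0, against 2 with all 6 groups in 1 fit, 7 with dim genes left out, 5303 with array weights, 5 with a trended robust variance and 250 with the Y-linked covariate, and members numbered 6 with array weights. In CD45- cells 2 genes were called, against 0, 4 and 1 with all 6 groups, array weights and the Y-linked covariate, and in complete tumors 0, against 27 with the replicate block. With 1 array left out these counts ran from 0 to 30 in CD45+ cells, 0 to 4 in CD45- cells and 0 to 49 in complete tumors.

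Of CD45+ against CD45- cells, 2 members were called, against 1 with the replicate block, with repeated quantile normalization, with the Y-linked covariate or without the 2 arrays of narrowest range, 4 with array weights, and 1 to 3 with 1 array left out. Over all genes the calls were 1520 higher and 852 lower, against 1259 and 386 with the replicate block and 2019 and 2256 (4275 in all) with array weights. Within B;p38α 0 members were called, against 1 each with all 6 groups, dim genes left out, array weights, trended robust variance or the 2 arrays left out, and genes called went to 1906 with array weights. Within B 0 members were called, against 2 with all 6 groups, 1 with dim genes left out or trended robust variance and 3 with array weights, and genes called were 534 with the replicate block, 2652 with array weights and 329 without the 2 arrays, the main split of 760 higher and 148 lower standing at 799 and 291 with repeated quantile normalization. With 1 array left out, within B;p38α 0 to 1 members and 606 to 1197 genes were called, and within B 0 to 2 and 271 to 1077.

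Against complete tumors, members called in CD45+ cells fell to 3 with the replicate block, dim genes left out or the 2 arrays left out, and ran from 3 to 5 with 1 array left out, while genes called came to 7769 with array weights. In CD45- cells 1484 genes were called with the replicate block, and 1459 to 2990 genes and 1 to 2 members with 1 array left out. The interaction of genotype with CD45+ or complete gave 1 member and 761 genes with array weights and 0 to 16 genes with 1 array left out, and that with the sort 0 to 1 genes. The replicate numbers were not taken to pair the samples, so these block values are given for completeness.

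The following values changed sign, among them that of Ccr8 in the interaction with the sort, at 0.55 before. In complete tumors the genotype difference of Tnfrsf4 was -0.03 with array weights and -0.06 with the Y-linked covariate, and that of Tnfrsf18 0.05 with the replicate block and 0.04 with repeated quantile normalization. With 1 array left out Tnfrsf4 ran from -0.21 to 0.24, Tnfrsf18 from -0.22 to 0.20 and Ccr8 from -0.36 to 0.09 there, and in CD45- cells Ikzf2 from -0.71 to 0.05 and Tnfrsf18 from -0.37 to 0.01. CD45+ against CD45- within B;p38α, Il2ra was -0.13 with the Y-linked covariate and ran from -0.02 to 0.22, and Lrrc32 from -0.73 to 0.08. Ikzf4 in CD45+ cells against complete tumors was -0.03 with repeated quantile normalization and ran from -0.08 to 0.12. In the interaction with the sort, Ikzf2 was 0.03 without the 2 arrays, Tnfrsf4 -0.18 and Ccr8 -0.59 with array weights, and Tnfrsf18 -0.13 with repeated quantile normalization, -0.08 with array weights and -0.13 with the Y-linked covariate. With 1 array left out it ran from -0.42 to 0.34 for Ikzf2, -0.19 to 0.38 for Tnfrsf4, -0.22 to 0.16 for Tnfrsf18, -0.00 to 1.10 for Ccr8 and -0.17 to 0.64 for Lrrc32. In the interaction with CD45+ or complete, Tnfrsf18 ran from -0.42 to 0.01 and Lrrc32 from -0.40 to 0.05. Relative to the Cd3 genes in CD45+ cells, Ikzf2 was -0.05 with all T cell markers as denominator and Ccr8 0.06 with repeated quantile normalization, and with 1 array left out Tnfrsf4 ran from -0.31 to 0.15, Ccr8 from -0.35 to 0.20 and Lrrc32 from -0.37 to 0.19.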
